A study of Sus scrofa with 6 samples.

Results

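The C-type lectin receptor genes described here are 10 genes of the C-type lectin-like domain superfamily: CLEC5A, CLEC7A, CLEC12A, CLEC4G, CLEC10A, CLEC1A, CLEC1B, CLEC14A, CLEC2D and CLEC3B. They were selected on the FPKM values of the diet comparison described below, so their differences between the diets are given as a description, with no p-value for any of the 10. Of the 10 genes, 7 carried their symbol in the deposited table, which has 30477 genes. CLEC4G (ENSSSCG00000039007) was matched through a table of gene identifiers and CLEC2D (ENSSSCG00000000657) through the NCBI gene number in its row, which gave 9 genes with values. CLEC10A was not analysed here.

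RNA from the abdominal aorta of male Wuzhishan miniature pigs was sequenced in 2 groups of 3 pigs. The NC group ate normal chow and the HFCF group a diet high in fat, cholesterol and fructose, both for 6 months. The labels give an age of 3 to 4 months, which is shorter than the feeding and so cannot be the age at sampling. Each library came from 1 pig and held the whole vessel wall, so that fewer cells of a type and less RNA per cell cannot be told apart. The p-values below measure only the spread between these pigs.

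C-type lectin receptors are membrane proteins with a sugar-binding fold, although many members bind proteins or lipids instead. In myeloid cells, receptors such as dectin-1 (CLEC7A) carry a tyrosine motif of their own, while MDL-1 (CLEC5A) passes its signal through the adaptor DAP12, encoded by TYROBP, and both routes reach the kinase SYK. Downstream of dectin-1, SYK acts on the CARD9, BCL10 and MALT1 complex, which activates NF-kB, whereas inhibitory receptors such as CLEC12A recruit the phosphatases SHP-1 (PTPN6) and SHP-2 (PTPN11). Other relatives act in endothelium, platelets and lymphocytes or are secreted, and the atherosclerotic vessel wall is a tissue in which macrophages that carry such receptors collect.

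Values are FPKM, fragments per kilobase of transcript scaled to the mapped fragments of the library, which can be compared between genes because they are scaled to length. The FPKM values of a library summed to 272207 to 287141 in NC and 330222 to 338690 in HFCF, and 39.9 to 43.9% of genes were listed at 0. The smallest steps between low values in genes with 1 transcript put the read depths within 1.37 times of each other, with NC pig 3 the deepest, while the depths themselves are unknown. A value listed at 0 can be a failed estimate, although none of 15 housekeeping genes was listed at 0 in any library. HFCF pig 1 stood apart in marker genes of blood cells, as given below. A log2 fold change is HFCF minus NC on log2(FPKM + 0.1), and its median over the 15384 tested genes was 0.32.

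CLEC5A and CLEC7A, the activating myeloid receptors of the set, were near or at 0 in the chow-fed aorta and clearly measured in every HFCF pig. CLEC5A (ENSSSCG00000021933) was listed at 0 in NC pigs 1, 2 and 3 and had 7.44, 3.55 and 1.47 FPKM in HFCF pigs 1, 2 and 3. All HFCF values lay above all NC values, and HFCF pig 1 was the highest. No fold change is given for CLEC5A because the whole NC group was listed at 0.

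CLEC7A (ENSSSCG00000000648), the receptor for fungal beta-glucan, had 0.0237, 0.0813 and 0 FPKM in the NC pigs and 9.71, 8.44 and 5.40 FPKM in the HFCF pigs. The groups were far apart, and the HFCF pigs differed by 1.8 times between the highest and the lowest. The log2 fold change was 5.88 (SE 0.35, n = 3 per group), 5.56 above the median of all tested genes. Its size depended on the pseudocount, with 3.06 at a pseudocount of 1 and 7.93 at 0.01.

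CLEC12A (ENSSSCG00000039287), an inhibitory receptor of granulocytes and monocytes that senses uric acid crystals, was low in both groups. It had 0, 0.478 and 0.107 FPKM in the NC pigs and 0.433, 0 and 0.0783 FPKM in the HFCF pigs. The groups overlapped throughout, each with 1 pig at 0. The log2 fold change was -0.11 (SE 0.84), and it ran from -0.78 without HFCF pig 1 to 0.56 without NC pig 2, so neither direction can be read from these pigs.

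CLEC4G, the glycan receptor LSECtin known from liver and lymph node sinusoidal endothelium, was close to 0 in every pig. It had 0.128, 0 and 0 FPKM in the NC pigs and 0, 0.125 and 0.0854 FPKM in the HFCF pigs. Its mean over the 6 pigs was under the minimum of 0.1 FPKM, and it was left out of the fit.

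**Figure D1:**
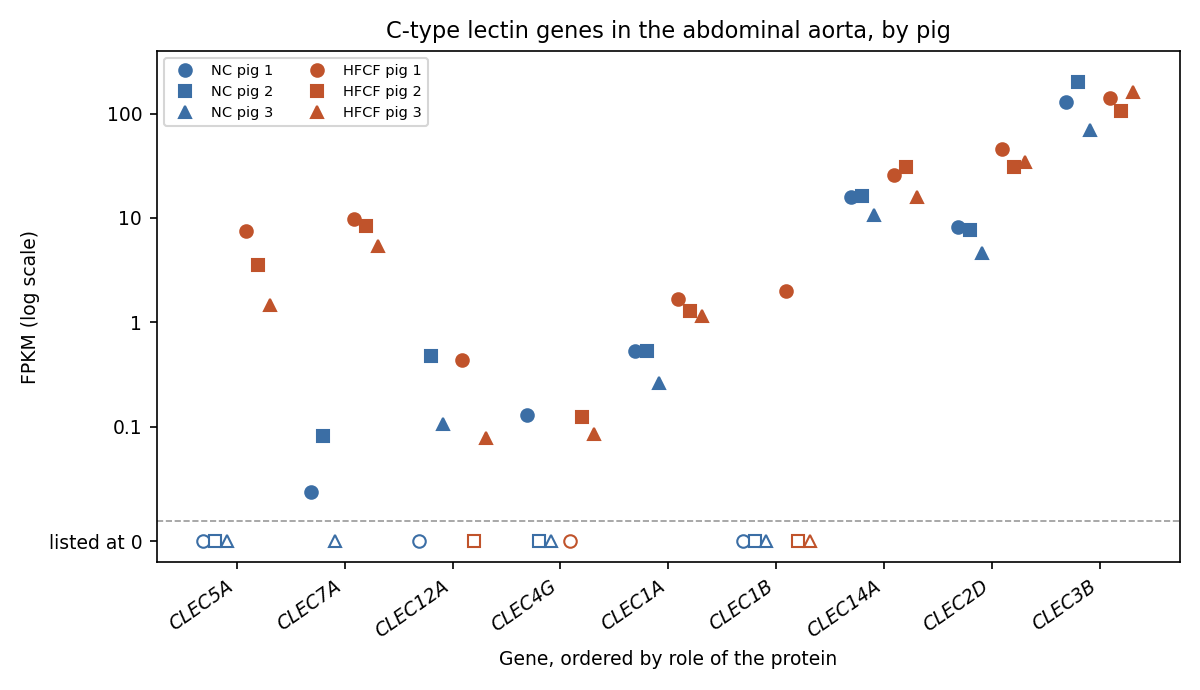
FPKM (log scale) of the 9 C-type lectin genes with values, by pig, with NC in blue and HFCF in orange; open symbols under the dashed line are values listed at 0. CLEC5A, CLEC7A, CLEC1A and CLEC2D have all 3 HFCF pigs above all 3 NC pigs, while CLEC12A, CLEC4G, CLEC14A and CLEC3B overlap and CLEC1B is above 0 in HFCF pig 1 alone.

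CLEC1A (ENSSSCG00000000649), a receptor of endothelial and some myeloid cells that binds fungal melanin, was low but present in all 6 pigs. It had 0.531, 0.526 and 0.260 FPKM in the NC pigs and 1.68, 1.27 and 1.15 FPKM in the HFCF pigs. The groups did not overlap, with means of 0.439 ± 0.155 and 1.37 ± 0.27 FPKM (SD, n = 3), and the log2 fold change was 1.47 (SE 0.33). It was 0.72 at a pseudocount of 1 and 0.83 after quantile normalization.

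CLEC14A (ENSSSCG00000023760), a glycoprotein of the endothelial surface that binds the matrix protein multimerin-2, was among the higher members. It had 15.9, 16.3 and 10.6 FPKM in the NC pigs and 25.6, 30.7 and 15.9 FPKM in the HFCF pigs. HFCF pig 3 lay within the NC range, so the groups overlapped. The log2 fold change was 0.72 (SE 0.28), 0.40 above the median of all genes, and 0.37 after median-ratio scaling.

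CLEC1B (ENSSSCG00000000650), the platelet receptor CLEC-2 that binds podoplanin, was listed at 0 in all NC pigs and in HFCF pigs 2 and 3. HFCF pig 1 alone had a value, 1.99 FPKM. Some platelet genes moved with it in that pig. PPBP had 5.71 FPKM in HFCF pig 1 and at most 0.0913 FPKM in the other pigs. TREML1 had 1.56 FPKM in HFCF pig 1 and was listed at 0 elsewhere. GP1BB, GP6 and TUBB1 were also highest in that pig. GP9 and GP1BA were not, with 2.86 and 0.351 FPKM in that pig and up to 3.71 and 0.659 FPKM in the NC pigs. The summed level of 8 platelet markers was 29.9 FPKM in that pig and 9.92 to 11.6 FPKM in the others. Of the 8, 3 had all HFCF pigs above all NC pigs, which held for 36.1% of all tested genes. None of the 8 was called (limma, adjusted p under 0.05). ITGA2B, which encodes the platelet integrin subunit, had 8.25 FPKM in that pig against 7.01 to 7.93 FPKM in the others. The part of platelets in the CLEC1B value was not tested.

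CLEC2D, also called LLT1, is a ligand of the natural killer cell receptor NKR-P1A, encoded by KLRB1. It had 8.27, 7.62 and 4.65 FPKM in the NC pigs and 45.7, 30.6 and 34.3 FPKM in the HFCF pigs. The lowest HFCF pig was well above the highest NC pig, and the group means were 6.84 ± 1.93 and 36.9 ± 7.87 FPKM (SD, n = 3). The ratio of the means was 5.39, and the log2 fold change was 2.43 (SE 0.26), between 2.08 and 2.59 under every alternative run.

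CLEC3B (ENSSSCG00000011299) encodes tetranectin, a secreted protein that binds plasminogen. It had the highest level of the set, with 129.4, 200.6 and 70.4 FPKM in the NC pigs and 140.1, 105.7 and 161.5 FPKM in the HFCF pigs. The NC pigs spanned the whole HFCF range, and the means were 133.4 ± 65.2 and 135.8 ± 28.1 FPKM. The log2 fold change was 0.13 (SE 0.37), and its sign changed with the scaling and with the pig left out, from -0.27 without NC pig 3 to 0.49 without NC pig 2.

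The order of FPKM levels differed between the diets mainly in its middle. In NC, CLEC3B, CLEC14A and CLEC2D followed each other without overlap, and CLEC1A came next, with a range that overlapped that of CLEC12A. CLEC7A, CLEC4G, CLEC5A and CLEC1B made up the lower end and did not differ from their neighbours beyond the spread. In HFCF, CLEC3B was again apart from the rest, CLEC2D and CLEC14A overlapped, CLEC7A, CLEC5A and CLEC1A formed an overlapping run, and CLEC4G, CLEC12A and CLEC1B lay lowest. CLEC5A stood at 76.6, 42.1 and 27.2% of CLEC7A in HFCF pigs 1, 2 and 3, so their balance differed between pigs.

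Of the 9 genes with values, 8 passed the filter on low values, and CLEC5A and CLEC1B passed only through the HFCF pigs. By limma with a Benjamini-Hochberg adjusted p under 0.05, 4 of the 8 were called, all higher in HFCF. Over all tested genes, 28.9% were called, 22.8% as higher and 6.16% as lower. In 4 genes, CLEC5A, CLEC7A, CLEC1A and CLEC2D, all HFCF pigs lay above all NC pigs, which held for 36.1% of all tested genes. Nothing is read from these counts, because the contrast was used to choose the genes. The count of called genes ran from 3 to 5 when each pig was left out.

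The deposited annotation describes what the set shares apart from its levels. Of the 9 genes, 7 carried the term carbohydrate binding and 8 the term for an integral membrane protein, with CLEC3B as the gene placed in the extracellular space. CLEC7A and CLEC1B were the 2 members in the KEGG pathway of C-type lectin receptor signalling. Several of the genes also share a place in the genome: on the RefSeq annotation of assembly Sscrofa11.1, 17 genes lie in the stretch from OLR1 to CLEC2D, 14 of them protein-coding, and 9 had a row in the table, 8 of them by symbol and CLEC2D by its NCBI gene number. In order these were OLR1, CLEC7A, CLEC1A, CLEC1B, CLEC12B, CLEC12A, CLEC2B, CD69 and CLEC2D.

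In this cluster CLEC7A, CLEC1A and CLEC2D had all HFCF pigs above all NC pigs, as did the neighbours OLR1, CLEC12B, CLEC2B and CD69. The same held for 36.1% of all tested genes. CLEC12A, low in both groups, overlapped, and CLEC1B was above 0 in HFCF pig 1 alone. Neither gene can show whether the cluster moved together. OLR1, the scavenger receptor LOX-1 for oxidised low-density lipoprotein, had 1.55, 2.96 and 1.86 FPKM in the NC pigs and 22.4, 9.44 and 3.43 FPKM in the HFCF pigs. CD69, a marker of activated lymphocytes, had 0, 0 and 0.0504 FPKM in the NC pigs and 4.73, 0.326 and 0.113 FPKM in the HFCF pigs, with HFCF pig 1 far above the rest. CLEC2B, a ligand of the natural killer cell receptor NKp80, had 1.53, 3.46 and 3.00 FPKM in NC and 10.7, 6.10 and 4.55 FPKM in HFCF.

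**Figure D2:**
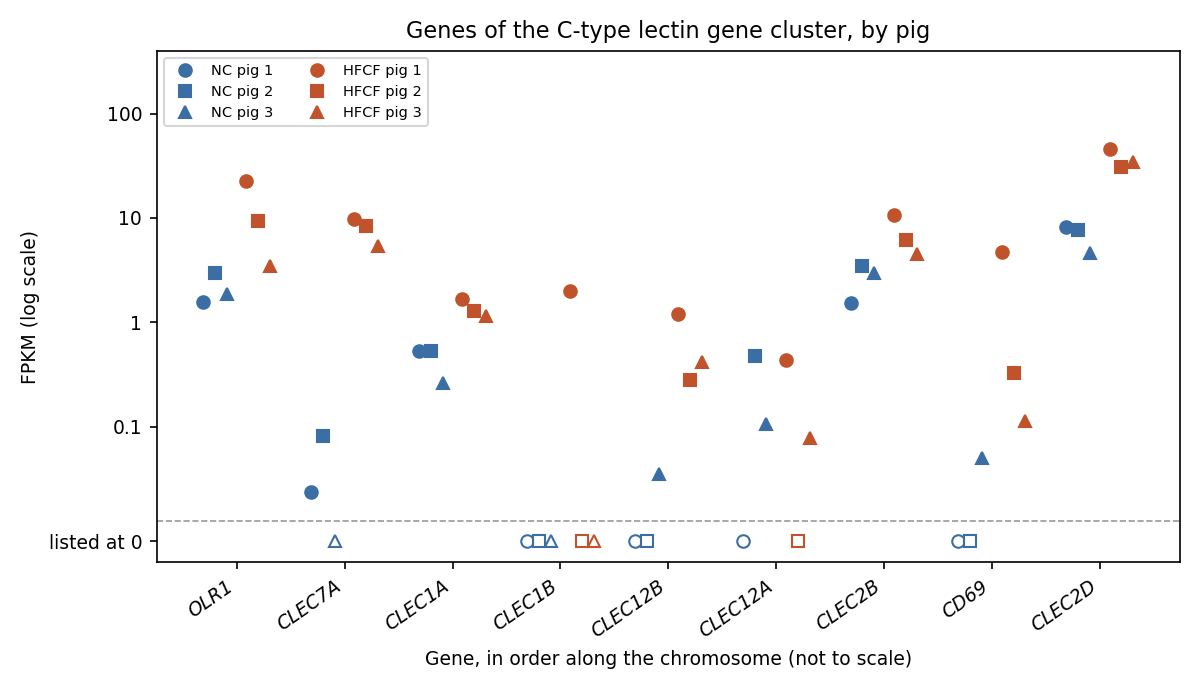
FPKM (log scale) of the 9 genes of the C-type lectin gene cluster with a row in the table, by pig and in chromosomal order on Sscrofa11.1; NC is blue, HFCF is orange, and open symbols are values listed at 0. CLEC12A overlaps between the diets, while CLEC12B and CLEC2B, plotted on either side of it, do not.

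Genes that carry the signal of these receptors were read from a list of 41 genes, of which 40 had a row and 35 were tested. In HFCF, 17 of the 35 rose and 1 fell (limma, Benjamini-Hochberg adjusted p under 0.05), and the log2 fold changes had a median of 1.52, against 0.32 over all tested genes. The called share was 51.4%, against 28.9% of all tested genes. This list was chosen with earlier results of these data known, so the share is a description. Macrophage markers moved with these genes, with 11 of 11 tested markers higher and a median log2 fold change of 4.43, and their part in the list was not tested. All 3 adaptors rose, 6 of 9 kinases and lipases rose, and 2 of 3 phosphatases rose, while in the group of the CARD9 complex and transcription factors 1 of 10 rose, with a median log2 fold change of -0.04.

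TYROBP, the adaptor used by CLEC5A, went from 10.6 ± 0.40 FPKM in NC to 154.5 ± 80.7 FPKM in HFCF (SD, n = 3). Its log2 fold change was 3.73 (SE 0.32; limma adjusted p = 0.000903). CLEC5A was at 3.0, 3.36 and 1.33% of the TYROBP level in HFCF pigs 1, 2 and 3. FCER1G, the adaptor used by several other receptors of the family, was at 6.78 ± 1.02 FPKM in NC and at 134.1 ± 85.7 FPKM in HFCF, with a log2 fold change of 4.12 (SE 0.40; limma adjusted p = 0.00126). HCST, the DAP10 adaptor, rose by 1.89 on the log2 scale (limma adjusted p = 0.017), a call lost without NC pig 1 or NC pig 2.

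SYK, the kinase shared by CLEC5A and CLEC7A, had 0.376 ± 0.093 FPKM in NC and 4.95 ± 3.24 FPKM in HFCF, and its log2 fold change was 3.23 (limma adjusted p = 0.00396). CLEC7A stood at 112.7, 225.0 and 218.0% of the SYK level in the HFCF pigs, against at most 17.2% in the NC pigs. PLCG2, the phospholipase C activated by SYK, had a log2 fold change of 1.04 (limma adjusted p = 0.078), and PRKCD, a kinase that acts on CARD9, one of 0.56 (limma adjusted p = 0.27). Neither passed the test.

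CARD9 was not analysed here. Its partners BCL10 and MALT1 had log2 fold changes of 0.27 and 0.54 (limma adjusted p = 0.309 and 0.337), and the sign turned after quantile normalization for both genes and after median-ratio scaling for BCL10. REL, an NF-kB subunit active in leukocytes and named here after its value was seen, was the gene of this group that rose, by 1.55 on the log2 scale (limma adjusted p = 0.0323, called in 5 of 15 alternatives). In RELA, RELB, NFKB2 and NFATC1, also named after their values were seen, all HFCF pigs lay below all NC pigs, but none was called. Of the 35 tested signalling genes, 6 had all HFCF pigs below and 18 above all NC pigs. Over the 15384 tested genes these counts were 1865 and 5553.

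PTPN6, the SHP-1 phosphatase of inhibitory receptors such as CLEC12A, was at 1.04 ± 0.095 FPKM in NC and at 26.1 ± 16.7 FPKM in HFCF, with a log2 fold change of 4.35 (SE 0.41; limma adjusted p = 0.00115). PTPN11, the more widely expressed SHP-2 phosphatase, was the single gene of the list called as lower, by 0.89 on the log2 scale (limma adjusted p = 0.0213), and it too was named after its value was seen. CLEC12A was near 0 in both groups while the PTPN6 level differed between them.

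Among 15 output genes 10 were tested and 5 rose. CASP1, the protease that matures interleukin-1 beta, had a log2 fold change of 4.68 (limma adjusted p = 0.000903). NLRP3, the sensor of its inflammasome, had one of 3.34 (limma adjusted p = 0.00109), and IL10, an anti-inflammatory cytokine, one of 3.05 (limma adjusted p = 0.0183, called in 9 of 14 alternatives). The number of genes called in the list was 10 without NC pig 1, and after median-ratio scaling 15 rose and 6 fell, after quantile normalization 14 and 4, and after rescaling to TPM 15 and 5.

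**Figure D3:**
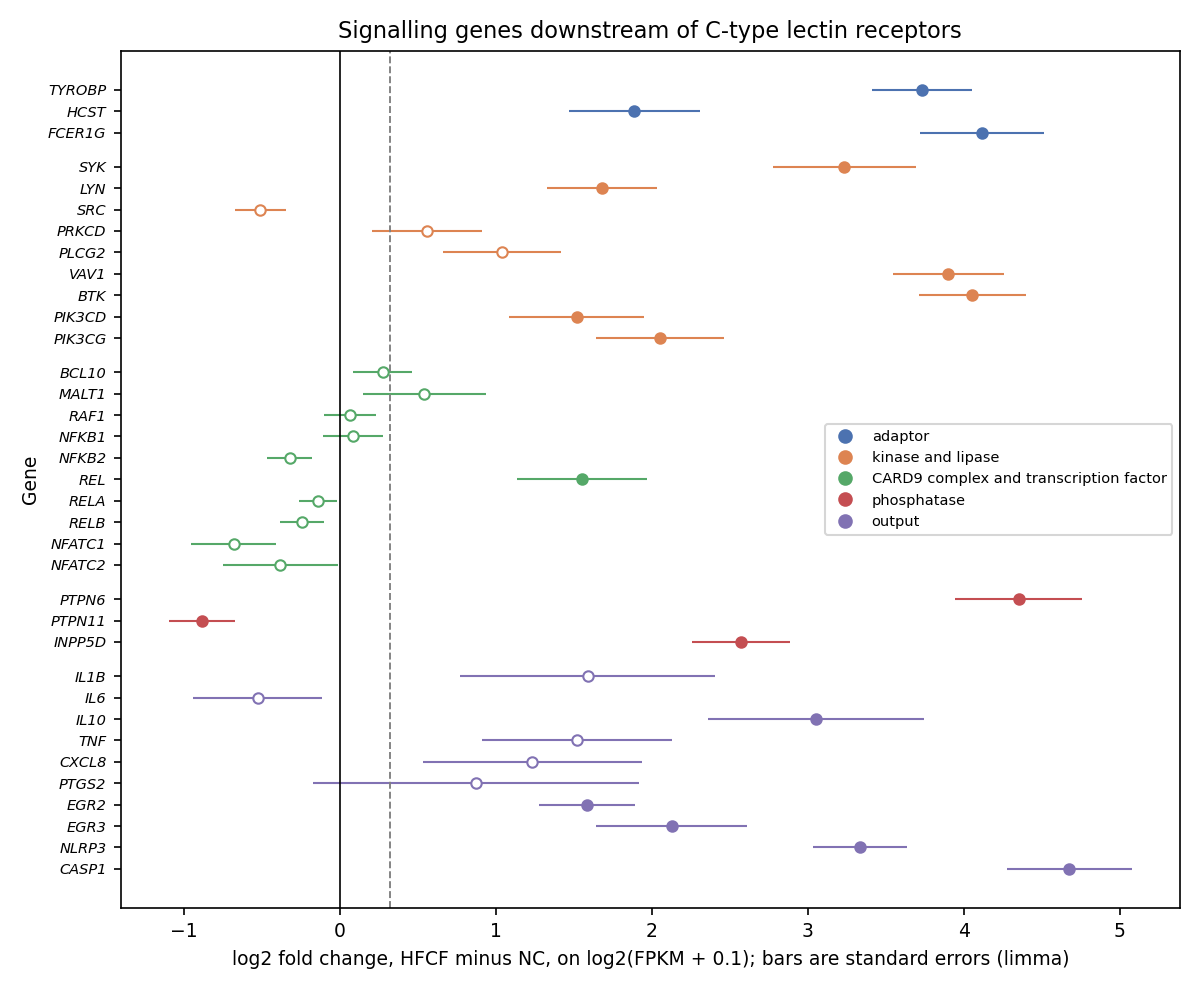
Log2 fold change (HFCF minus NC, log2(FPKM + 0.1)) with its standard error from limma for the 35 tested signalling genes, coloured by role; filled points were called at an adjusted p under 0.05, the solid line is 0 and the dashed line the median of all tested genes, 0.32. The adaptors TYROBP and FCER1G lie far to the right and the adaptor HCST less far, while 9 of 10 genes of the CARD9 complex and transcription factors were not called.

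The broader KEGG pathway of C-type lectin receptor signalling, as annotated in the deposited table, gave a different count. Of 87 tested genes 20 rose and 5 fell, which is 28.7% against 28.9% of all tested genes, and the median log2 fold change was 0.46. Without the members CLEC7A and CLEC1B the counts were 19 and 5 of 85. The direction depended on the scaling, with 14 higher and 17 lower after median-ratio scaling, 12 and 13 after quantile normalization and 14 and 14 after rescaling to TPM. It also depended on the pigs, with 12 genes called without NC pig 1 and 16 without NC pig 2.

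Genes of proteins known to bind a member were 8, of which 7 were tested and 2 called, 28.6% against 28.9% of all tested genes. LGALS9, encoding galectin-9, a ligand reported for dectin-1, rose by 1.99 on the log2 scale (limma adjusted p = 0.0044). PTPRC, the leukocyte phosphatase CD45, reported as a ligand of CLEC10A, rose by 3.92 (limma adjusted p = 0.00423). PDPN, encoding podoplanin, the ligand of CLEC1B, had a log2 fold change of 0.85 (limma adjusted p = 0.0996), and MMRN2, encoding multimerin-2, the ligand of CLEC14A, one of 0.71 (limma adjusted p = 0.356).

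KLRB1, the receptor for CLEC2D, had 0.0812, 0 and 0 FPKM in the NC pigs and 1.66, 0 and 0.576 FPKM in the HFCF pigs, with HFCF pig 2 at 0 (limma adjusted p = 0.169). Its ligand gene CLEC2D was measured in every pig of both groups. VIM, encoding vimentin, had a log2 fold change of -0.37 (limma adjusted p = 0.218) and PLG, encoding the plasminogen bound by tetranectin, one of -0.62 (limma adjusted p = 0.354). HSPA1A was not analysed here. Without HFCF pig 2 the count was 4, with PDPN and KLRB1 added, and VIM was called as lower after median-ratio scaling and quantile normalization.

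The rest of the superfamily was read from a list of 54 other C-type lectin genes, of which 45 had a row and 29 were tested. In HFCF 9 rose and 2 fell, 37.9% of them against 28.9% of all tested genes, with a median log2 fold change of 1.29 against 0.32. As with the signalling list, earlier results were known when it was chosen, and the share is a description. The called share was 27.6% both at a pseudocount of 1, where it was also 27.6% over all tested genes, and after median-ratio scaling, where it was 26.0% over all tested genes. By role, 4 of 9 tested myeloid genes rose, 1 of 5 lymphocyte genes and 3 of 9 soluble or matrix genes, and both genes that fell were endothelial. Each of the 3 other scalings (median-ratio, quantile, TPM) gave 6 higher and 2 lower.

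CLEC12B, an inhibitory receptor next to CLEC12A, had 0, 0 and 0.0351 FPKM in NC and 1.19, 0.280 and 0.419 FPKM in HFCF. Unlike in CLEC12A, the groups did not overlap, and CLEC12B was called as higher (limma adjusted p = 0.0138), but not at a pseudocount of 1 or without NC pig 1.

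VCAN, encoding the matrix proteoglycan versican, rose by 2.21 on the log2 scale (limma adjusted p = 0.00217), and CD302, an endocytic receptor of monocytes and macrophages, by 2.09 (limma adjusted p = 0.0103). OLR1 also rose by 2.09 (limma adjusted p = 0.0459), a call kept in 3 of 15 alternatives. Both genes that fell encode endothelial proteins of the same family group as CLEC14A. CD93 fell by 2.20 on the log2 scale (limma adjusted p = 0.0107), from 87.3 ± 33.7 to 19.9 ± 10.95 FPKM, and THBD, the anticoagulant receptor thrombomodulin, fell by 1.70 (limma adjusted p = 0.00768), to a mean of 4.16 ± 0.97 FPKM in HFCF. CLEC14A itself had 14.3 ± 3.16 FPKM in NC and 24.1 ± 7.48 FPKM in HFCF.

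Markers of other cell types moved with several members. All 11 tested macrophage markers rose, and their summed level was 50.4 to 61.8 FPKM in NC and 738.7 to 1934 FPKM in HFCF, with LYZ listed at 0 in all 6 pigs. CLEC7A and CLEC5A are not part of that sum and were set against it. CLEC7A stood at 0.046, 0.161 and 0% of the sum in NC, from values near or at 0, against 0.502, 1.003 and 0.73% in HFCF. CLEC5A stood at 0.384, 0.422 and 0.199% in the HFCF pigs. Summed neutrophil markers were 1.67 to 3.07 FPKM in NC and 7.18 to 116.2 FPKM in HFCF, with 2 of 6 tested markers called and S100A8, S100A9 and MPO listed at 0 in all NC pigs. The part of macrophages and neutrophils in the CLEC5A and CLEC7A values was not tested.

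Endothelial markers did not move in that way. The sum of 10 was 256 to 357 FPKM in NC and 186 to 347 FPKM in HFCF, with 1 of 10 called, as lower. CLEC14A and CLEC1A are not part of this sum and were set against it. CLEC14A stood at 5.17, 4.55 and 4.15% of the sum in NC, against 7.37, 12.4 and 8.56% in HFCF. CLEC1A stood at 0.173, 0.147 and 0.102% against 0.482, 0.514 and 0.619%. For both genes the percentage was higher in each HFCF pig than in each NC pig. This also held for the share of the sum that 2 of the 10 markers made up. TEK, an angiopoietin receptor, made up 1.20 to 1.64% of the sum in NC and 3.16 to 4.49% in HFCF, and KDR, a VEGF receptor, 0.80 to 0.82% and 1.56 to 2.37%. ESAM was the marker called as lower, and it held 36.4 to 49.2% of the sum in NC and 22.2 to 40.6% in HFCF. Markers of T and NK cells summed to 2.86 to 4.31 FPKM in NC and 34.7 to 105.6 FPKM in HFCF, with 4 of 8 called as higher, and those of B and plasma cells to 6.74 to 11.2 and 35.6 to 48.6 FPKM. The part of lymphocytes in the CLEC2D values was not tested. Smooth muscle markers, of the main cell type of the wall, summed to 15145 to 21336 FPKM in NC and 7659 to 12401 FPKM in HFCF, with 4 of 6 called as lower. Lymphatic endothelial markers summed to 60.1 to 68.7 FPKM in NC and 104 to 309.6 FPKM in HFCF, with CCL21 as the 1 of 5 called, and the part of both cell types in the members' values was not tested.

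HFCF pig 1 was set against the mean of HFCF pigs 2 and 3. The ratio was 2.96 for CLEC5A, 1.40 for CLEC7A, 1.38 for CLEC1A, 1.41 for CLEC2D, 1.10 for CLEC14A and 1.05 for CLEC3B. Over the tested genes its median was 1.02 and its 90th percentile 2.21, and 5.62% of 15200 genes with a ratio were above CLEC5A. The summed macrophage markers had a ratio of 2.45, the platelet markers 2.82, the T and NK cell markers 3.04 and the neutrophil markers 10.9.

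**Figure D4:**
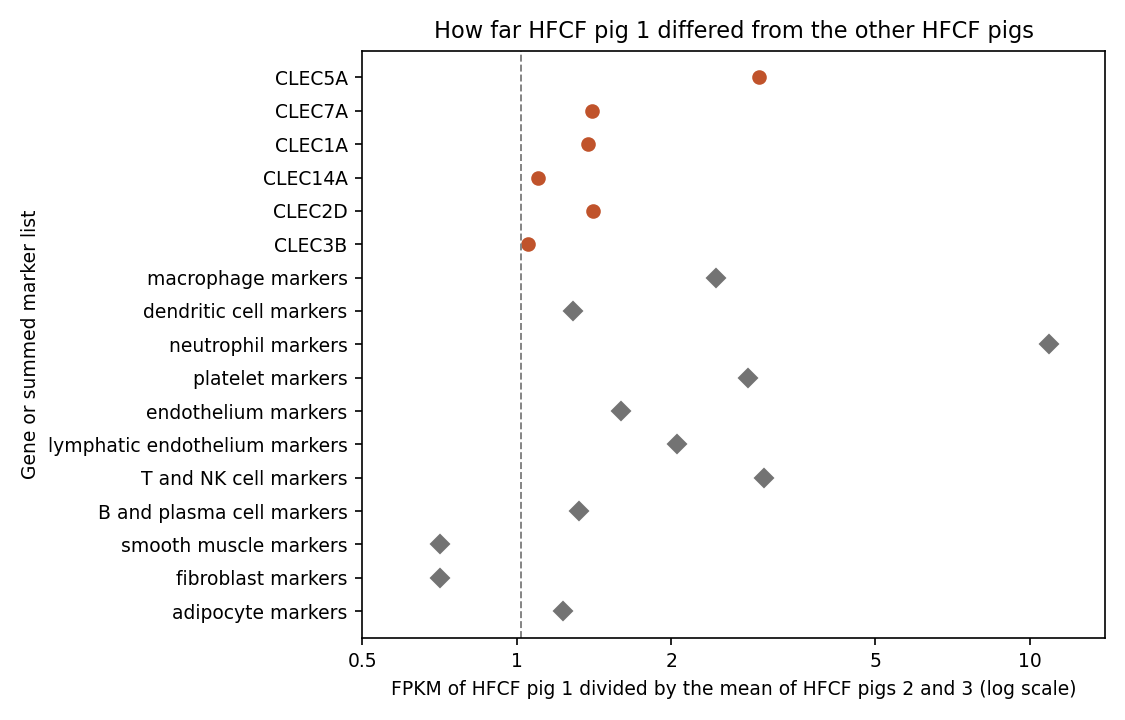
FPKM of HFCF pig 1 divided by the mean of HFCF pigs 2 and 3 (log scale) for 6 C-type lectin genes (circles) and for the summed markers of 11 cell types (diamonds), with the median of all tested genes, 1.02, as the dashed line. CLEC5A, at 2.96, lies near the macrophage, platelet and T and NK cell markers, while neutrophil markers reach 10.9.

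The genes with the most similar profile over the 6 pigs were found by the root mean square difference of centred log2(FPKM + 0.1) among 10359 genes with a mean of at least 1 FPKM. These distances include the diet difference by which the members were chosen, so the nearest genes are a description. For CLEC5A they were P2RY12 (0.32), CPSF6 (0.34), CTSS (0.36), CD68 (0.37) and AIF1 (0.38), each value being that difference in log2 units. Because CLEC5A was listed at 0 in all NC pigs, the NC part of its profile is the pseudocount alone. P2RY12, an ADP receptor, had 8.43, 5.80 and 2.47 FPKM in the HFCF pigs, in the same order as CLEC5A. That order was not particular to P2RY12, as CPSF6, CTSS, CD68 and CLEC7A also had it, while AIF1 did not. Whether the CPSF6 values belong to that gene was not tested, as given at the end. For CLEC7A they were APOE (0.34), CXCL14 (0.37), TREM2 (0.53), GMFG (0.55) and CYP7A1 (0.56). For CLEC12A, whose values are low, the nearest genes were no closer than 0.53 (CNOT7), followed by ENPP6 (0.55), CEP85L (0.57), PTHLH (0.58) and the microRNA gene ssc-mir-221 (0.59).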

How the data were processed

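The authors trimmed paired-end reads with cutadapt 1.9, checked them with FastQC, aligned them with HISAT2 to pig assembly Sscrofa 10.2 and assembled and quantified transcripts with StringTie; the tool versions other than that of cutadapt are not given in the sources used here. The deposited table holds FPKM per gene, where 0.0001 stands for 0. Total counts are unknown, so the precision of a value is known from the spread between pigs alone.

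The members and gene lists were chosen with earlier results of these data known. Genes with a mean of at least 0.1 FPKM (15384) were fitted as log2(FPKM + 0.1) with limma 3.58.1 in R 4.3.3, with eBayes variances following a trend and p-values adjusted over all of them (Benjamini-Hochberg), and called at an adjusted p under 0.05. Simulated data with 200 genes changed by a log2 value of 4 gave 173 recovered and 15 false calls. Many changes described here are smaller and far more genes were called, so the simulation does not give the sensitivity of these calls. Alternatives were the pseudocount, the filter, scaling, the trend, the replicate number as a block and each pig left out. Named genes were all members, the core signalling genes with the 3 most changed called outputs, the 5 most changed other lectins in each direction (a gene among them is not reported here), all partner genes and the 5 nearest profiles of CLEC5A, CLEC7A and CLEC12A. Markers and the cluster genes were given as values. The study states an age in its methods that differs from the labels. The label age is the one given here, although it is shorter than the feeding time.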

Additional observations from a re-analysis of the deposited data

How the results depend on the processing

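Total counts are unknown, which limits what can be said of members under 0.1 FPKM. For the C-type lectin genes 3 to 5 were called when each pig was left out, against 4 of 8, and 3 after quantile normalization. For the other C-type lectin genes the range was 8 to 11, for the signalling genes 10 to 17 against 18, for the KEGG pathway 12 to 22 against 25, for the partner genes 2 to 4 against 2, and for all tested genes 2399 to 3562 against 4453. The all-gene count was lowest without NC pig 1, and it was 2879 without NC pig 2 and 2936 without HFCF pig 2. With the replicate number as a block, 2772 of all tested genes and 15 of the KEGG pathway were called, and 5 members. Same-numbered pigs did not deviate together (r = 0.021, -0.079 and -0.072), so the numbers give no pairing. The log2 fold change of BCL10 turned to -0.076 after median-ratio scaling and -0.118 after quantile normalization, and that of MALT1 to -0.102 after quantile normalization; the scaling moved the median of all genes from 0.32 to 0.00 (median-ratio), -0.07 (quantile) and 0.09 (TPM). The calls over all genes were 3505 higher and 948 lower, and 2033 and 1968 after median-ratio scaling, 1748 and 1782 after quantile normalization and 2229 and 1527 after rescaling to TPM. For the named genes with a test, 356 further values kept direction and side of the threshold, 21 lost the call and 4 gained it. For the C-type lectin genes with a fold change, 83 of 88 values moved by less than the spread between pigs and 5 by more (CLEC7A and CLEC1A), and the sign changed in 3 alternatives for CLEC12A and 4 for CLEC3B. The causes were not tested.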

Other observations

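LYZ, the lysozyme gene and a usual macrophage marker, was listed at 0 in all 6 pigs. CPSF6, the gene next to it on the RefSeq annotation of Sscrofa11.1, encodes an mRNA cleavage factor and had 3.59, 2.95 and 3.34 FPKM in the NC pigs and 207.4, 64.8 and 44.7 FPKM in the HFCF pigs. The CPSF6 profile was the second nearest to that of CLEC5A, and both LYZ and CPSF6 were chosen for mention after their values were seen. Whether reads of LYZ were counted under CPSF6 was not tested, so a rise of CPSF6 itself cannot be read from these values.

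Output genes of C-type lectin receptors that are not named above included cytokines that did not pass the test. IL1B had 0.310, 0.501 and 0.217 FPKM in the NC pigs and 5.04, 0.590 and 0.501 FPKM in the HFCF pigs, with HFCF pig 1 alone above the NC range by a wide margin (limma adjusted p = 0.184). IL12B and CCL17 were listed at 0 in all 6 pigs.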
